A study of Mus musculus with 6 samples.

Results

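The genes described here were 6 transcription factors of the lung epithelium: Nkx2-1, Foxa1, Foxa2, Gata6, Foxp1 and Foxp2. They were found by symbol among the 31055 features of a single-cell count matrix made from sorted neoplastic cells of mouse lung tumours, and each symbol matched 1 feature. The cells came from 6 mice of 2 cohorts of 3. All mice carried the alleles KrasLSL-G12D, Lkb1XTR/XTR and Rosa26LSL-tdTomato, and tumours were started by Cre delivered to the airways in a lentivirus and grown for 20 weeks. In the Lkb1XTR allele Cre switches on a gene trap that stops Lkb1 (gene symbol Stk11) and reports the trapped state with GFP, and the FLPo recombinase takes the trap out. The 3 Restored mice had Rosa26LSL-tdTomato/FLPo-ERT2, whose recombinase needs tamoxifen, and received tamoxifen in doses of 4 mg over the last 2 weeks. The 3 NonRestored mice were 1 mouse without FLPo-ERT2 given tamoxifen, 1 without it given vehicle and 1 with it given vehicle. Live tdTomato-positive cells negative for CD45, CD31, F4/80 and Ter119 were sorted and loaded on 10x Chromium.

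The matrix held the cells of all 6 libraries and the files used here do not give the mouse of each cell, so the cohorts were not compared and the matrix was treated as 1 pooled sample. No p-value could be given. Of 16017 cells, 12183 had at least 500 genes and at most 20% mitochondrial UMIs and were kept, with a median of 19348 UMIs per cell (range 671 to 125731). The level of a gene is its summed UMIs in a gate per 10000 UMIs of that gate, with exact Poisson 95% intervals, and ratios have exact conditional binomial 95% intervals. These intervals cover counting error only and not the spread between mice. Since reads came from the 3′ ends of transcripts, levels are compared between cells for 1 gene and never between genes.

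In the lung, NKX2-1 is the homeodomain factor that specifies the lung and thyroid in the foregut and keeps alveolar identity. FOXA1 and FOXA2 are forkhead pioneer factors that open chromatin at endodermal genes and work at many of the same sites as NKX2-1, and GATA6 is a zinc-finger factor needed for the maturation of the distal epithelium. FOXP1 and FOXP2 are forkhead repressors of the developing airway and alveolus. ATII cells make surfactant and act as progenitors of ATI cells, the thin cells of gas exchange, and a keratin-rich transitional state lies between them after injury and in tumours.

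In the reference annotation (GRCm38, GENCODE M21) Nkx2-1 lay on the minus strand of chromosome 12 from 56531958 to 56536908, and Foxa1 on the same strand from 57540628 to 57546916. These genes were 1004 kb apart with 15 annotated genes between them. Foxa2 lay on the minus strand of chromosome 2 from 148042877 to 148046969. Foxp1 (minus strand, 98925338 to 99522721) and Foxp2 (plus strand, 14901349 to 15441977) were both on chromosome 6.

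The bases just upstream of Nkx2-1, Foxa1 and Foxa2 are printed because these were the members that went in opposite directions or together between the cell states described here. They come from RefSeq (GRCm38.p6), are read 5′ to 3′ on the minus strand, and end where the RefSeq transcript or the nearest annotated exon begins. The windows are chr12:56536909-56537158 for Nkx2-1, chr12:57546122-57546361 for Foxa1 and chr2:148046970-148047219 for Foxa2. The Foxa1 window was cut to 240 bases and lies in an intron of a longer annotated Foxa1 transcript, and the other windows have 250 bases. The capitals mark the only match to the motifs searched.
Nkx2-1: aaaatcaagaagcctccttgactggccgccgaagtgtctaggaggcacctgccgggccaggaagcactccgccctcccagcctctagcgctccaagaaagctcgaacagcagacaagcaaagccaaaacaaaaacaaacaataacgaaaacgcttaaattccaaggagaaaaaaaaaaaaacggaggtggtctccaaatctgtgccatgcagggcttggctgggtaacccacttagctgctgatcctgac
Foxa1: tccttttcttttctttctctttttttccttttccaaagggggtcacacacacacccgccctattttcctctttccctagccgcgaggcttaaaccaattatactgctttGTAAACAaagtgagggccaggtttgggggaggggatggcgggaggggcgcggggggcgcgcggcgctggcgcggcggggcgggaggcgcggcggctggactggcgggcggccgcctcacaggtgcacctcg
Foxa2: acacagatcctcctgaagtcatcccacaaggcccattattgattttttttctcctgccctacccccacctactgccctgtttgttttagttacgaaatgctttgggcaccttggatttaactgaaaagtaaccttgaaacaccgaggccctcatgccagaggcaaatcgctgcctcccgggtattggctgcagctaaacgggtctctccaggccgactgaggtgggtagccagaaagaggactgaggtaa
Motifs were searched on both strands. The core bound by NKX2-1 was CAAGTG, and the forkhead motif was TGTTT followed by any base and then C. The motif of GATA factors was AGATAA, and that of C/EBP factors was TTGCNNAA, in which N is any base. The Foxa1 window had 1 forkhead match, which read GTAAACA on the printed strand and began 141 bases before the RefSeq start. Over 32851 mouse promoter entries, 17.8% held a forkhead match in the 250 bases before the start, 11.6% the NKX2-1 core, 9.99% the GATA core and 9.56% the C/EBP motif. The guanine and cytosine content was 62.5% in the Foxa1 window and 50.8% in each of the other windows. Of the 6 members, 4 had a promoter entry, and Gata6 and Foxp2 had none.

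Cells were divided by gates on other genes. The ATII gate (Sftpc at least 500, Hopx under 2, Krt8 plus Krt18 under 50, in UMIs per 10000) held 6975 cells, 57.25% of those kept. The ATI gate (Hopx at least 15, keratins under 50) held 956 cells, the keratin-high gate (Krt8 plus Krt18 at least 50) 1183 cells, and 3069 cells fell in none. Their median depths were 21660, 11796, 23490 and 13849 UMIs. Gates are ranges of continuous values: 342 cells had Hopx between 12 and 18 and 676 cells had keratins between 40 and 60. The gates matched their labels by markers that did not define them. Ager, an ATI receptor gene, was at 8.41 in the ATII gate, 59.0 in the ATI gate and 16.8 in the keratin-high gate, and Rtkn2 at 0.0154, 1.79 and 0.111. Krt19, a keratin of the transitional state, was at 1.70, 6.26 and 19.2. The ATI gate still held surfactant transcripts, with a median Sftpc level over cells of 90.8 against 1522 in the ATII gate, and Lyz2 at a median of 0.721 against 97.7. Summed markers of leukocytes, endothelium and fibroblasts were at or under 0.309 in each gate. The reporter that Cre switches on, tdTomato, was at 64.9, 79.95 and 100.3 in the ATII, ATI and keratin-high gates, against 1.815, 4.42 and 20.3 in the fibroblasts, endothelial cells and leukocytes described with the Nkx2-1 values. A single tdTomato UMI did not separate these cells, since 81.8%, 88.4% and 94.9% of the latter had one, beside 99.25% of all cells kept.

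Nkx2-1 was highest in ATI cells. Its level was 3.38 (3.35 to 3.40) in the ATII gate, 6.04 (5.91 to 6.18) in the ATI gate and 3.605 (3.54 to 3.67) in the keratin-high gate. Over all depths the ATI level was thus 1.79-fold (1.75 to 1.83) the ATII level, whereas the keratin-high level was 1.07-fold (1.046 to 1.09) the ATII level. The keratin-high ratio was 1.28 (1.23 to 1.34) in cells of 10000 to 20000 UMIs and 0.9495 (0.910 to 0.9905) in those of 40000 or more. Among cells thinned to 5000 UMIs, which left out 203, 115 and 93 shallower cells, 80.2% of ATII, 92.9% of ATI and 77.4% of keratin-high cells had an Nkx2-1 UMI. Before thinning the shares were 97.75%, 94.9% and 93.2%, a different order, with the ATI cells sequenced least deeply. In cells that should lack the gene, Nkx2-1 was at 0.0256 in 214 fibroblasts, 0.0662 in 121 endothelial cells and 0.0263 in 39 leukocytes, which were cells without Epcam that carried those markers. Their median depths were 15640, 9246 and 18956 UMIs, and 0.595% of the thinned fibroblasts and 4.05% of the thinned endothelial cells had an Nkx2-1 UMI. None of the 32 thinned leukocytes had one, which by a limit of 3 cells allows a share of up to 9.375%, and 2 of all 39 (5.13%) had one before thinning.

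**Figure D1:**
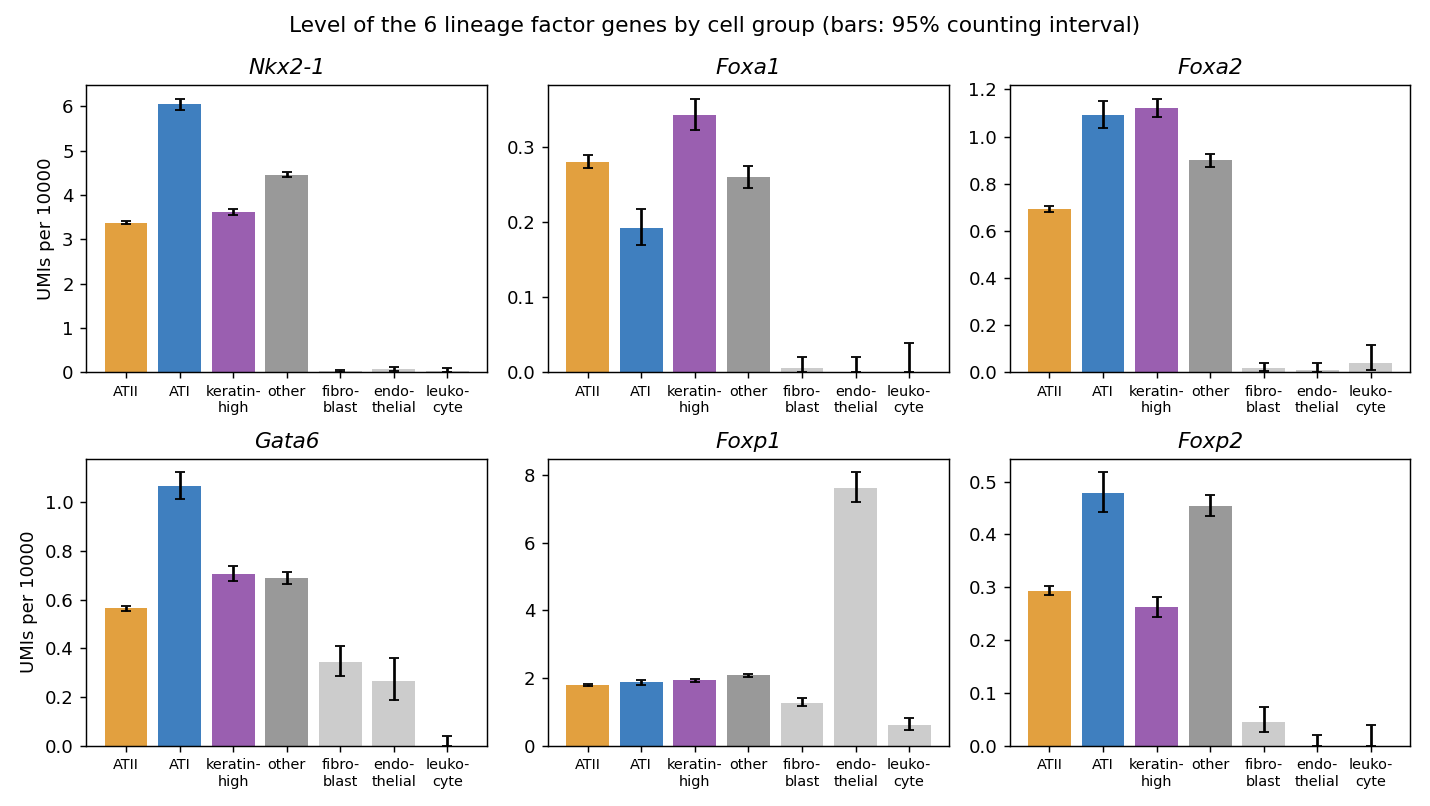
Levels of the 6 members (UMIs per 10000) in the ATII, ATI and keratin-high gates in the remaining cells and in reference fibroblasts, endothelial cells and leukocytes, 1 panel a gene, as bars from 0 with exact Poisson 95% intervals that cover counting error only. Nkx2-1 and Gata6 peak in the ATI gate, at 6.04 and 1.07, and Foxa1 is lower there, at 0.193, than in the other 2 gates.

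Nkx2-1 also varied most from cell to cell in the keratin-high gate. At 5000 UMIs per cell, the variance of its UMI count was 1.62 times the mean in keratin-high cells, against 1.31 in ATII and 1.32 in ATI cells. In the ATI gate 36.3% of cells had 4 or more Nkx2-1 UMIs, against 12.4% in the ATII gate and 18.5% in the keratin-high gate. The keratin-high cells thus had both more cells at 0 (22.6% against 19.8%) and more cells at 4 or more than the ATII cells.

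The FOXA genes, which code for paired pioneer factors, went different ways in ATI cells. Foxa1 was at 0.281 (0.273 to 0.289) in the ATII gate, 0.193 (0.170 to 0.218) in the ATI gate and 0.344 (0.323 to 0.365) in the keratin-high gate. Foxa2 was at 0.693 (0.680 to 0.706), 1.09 (1.04 to 1.15) and 1.12 (1.09 to 1.16) in the same order. The ATI level of Foxa1 was 0.685-fold (0.602 to 0.777) the ATII level, and that of Foxa2 was 1.575-fold (1.49 to 1.66). Over all depths both were higher in keratin-high than in ATII cells. The ratio was 1.22-fold (1.14 to 1.31) for Foxa1 and 1.62-fold (1.56 to 1.68) for Foxa2. That of Foxa1 moved with depth. It was 0.656 (0.334 to 1.169) in cells of 5000 to 10000 UMIs and 1.1 (0.924 to 1.303) in those of 10000 to 20000. Both of these intervals hold 1. It was 1.278 (1.162 to 1.404) in cells of 20000 to 40000 UMIs and 1.314 (1.156 to 1.491) in those of 40000 or more. Foxa2 was between 1.565 and 1.677 in these depth classes. Between the keratin-high and ATI gates Foxa1 differed by 1.785-fold (1.56 to 2.05) and Foxa2 by 1.03-fold (0.968 to 1.095), an interval that holds 1. In thinned cells, 13.3%, 9.275% and 15.1% of ATII, ATI and keratin-high cells had a Foxa1 UMI, and 29.4%, 40.1% and 39.1% a Foxa2 UMI. Without thinning these shares were 43.2%, 22.3% and 49.5% for Foxa1 and 69.2%, 65.5% and 78.7% for Foxa2. Fibroblasts, endothelial cells and leukocytes had 0.00568, 0 and 0 of Foxa1, and Foxa2 was at or under 0.0394 in all 3.

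Gata6 lay on the plus strand of chromosome 18 from 11052064 to 11085635 and was overlapped on the other strand by 1010001N08Rik, which was at 0.0562 or less in the 3 gates. Its order across the gates was ATI, keratin-high, ATII, at 1.07 (1.01 to 1.12), 0.706 (0.676 to 0.736) and 0.5635 (0.552 to 0.575), with no overlap of the intervals. The ATI level was 1.89-fold (1.79 to 2.00) the ATII level and the keratin-high level 1.252-fold (1.19 to 1.31). A Gata6 UMI was found in 24.9% of ATII, 41.1% of ATI and 29.2% of keratin-high cells at 5000 UMIs, and in 62.4%, 66% and 71.6% before thinning. Unlike Nkx2-1 and the FOXA genes, Gata6 was read at 0.344 in the fibroblasts and 0.265 in the endothelial cells, and at 0 in the leukocytes.

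The FOXP repressors also differed. Foxp1 had nearly level values over all depths, at 1.79 (1.77 to 1.815) in ATII, 1.88 (1.80 to 1.95) in ATI and 1.93 (1.88 to 1.98) in keratin-high cells, and its ratios between gates were between 1.03 and 1.08. Its ATI to ATII ratio turned with depth, as given below. It was not limited to epithelium, with 1.28 in fibroblasts and 7.62 in endothelial cells, of which 94.6% had a UMI at 5000 UMIs against 57.8%, 55.8% and 55.4% of the gated cells. Without thinning 91.4%, 76.4% and 84.7% of the gated cells had one. Foxp2 was at 0.294 (0.2855 to 0.302) in ATII, 0.479 (0.442 to 0.5175) in ATI and 0.262 (0.244 to 0.281) in keratin-high cells, so the ATI level was 1.63-fold (1.498 to 1.77) the ATII level and the keratin-high level 0.892-fold (0.827 to 0.962). The keratin-high to ATII ratio moved with depth. It was 1.07 (0.910 to 1.26) in cells of 10000 to 20000 UMIs and 0.7185 (0.608 to 0.846) in those of 40000 or more. A Foxp2 UMI was in 14.2%, 19.5% and 13.2% of thinned cells of the gates and in 41.0%, 39.75% and 37.0% before thinning. It was at 0.0455 in fibroblasts and at 0 in endothelial cells and leukocytes.

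All 6 members passed the level minimum of 0.05 UMIs per 10000 in either gate, and a difference of 1.5-fold was used to count them. From ATII to ATI, 4 of 6 members were higher by that much (Nkx2-1, Foxa2, Gata6 and Foxp2) and 0 were lower, against 31.0% of 9789 features higher and 9.61% lower. The median feature was itself 1.29-fold higher in ATI cells, in which Sftpc took 475 of each 10000 UMIs against 1553 in ATII cells. Divided by that median, 12.9% of features were higher and 16.5% lower, 0 members were higher, and Foxa1 was lower. From ATII to keratin-high, 1 member was higher (Foxa2) and 0 lower, against 34.1% and 9.24% of 9892 features, with the median feature 1.30-fold higher. Divided by that median, the shares of features were 15.9% and 16.3% and 0 members were past the fold. With only 6 members this count was too small to set apart from those shares. From ATI to keratin-high, where the median feature was at 1.01-fold, 1 member was higher (Foxa1) and 3 were lower (Nkx2-1, Gata6 and Foxp2), against 13.0% and 10.8% of 9910 features. The median log2 ratio over the 6 members was 0.68 for ATI against ATII, 0.20 for keratin-high against ATII and -0.28 for keratin-high against ATI, beside 0.37, 0.37 and 0.01 for all features.

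**Figure D2:**
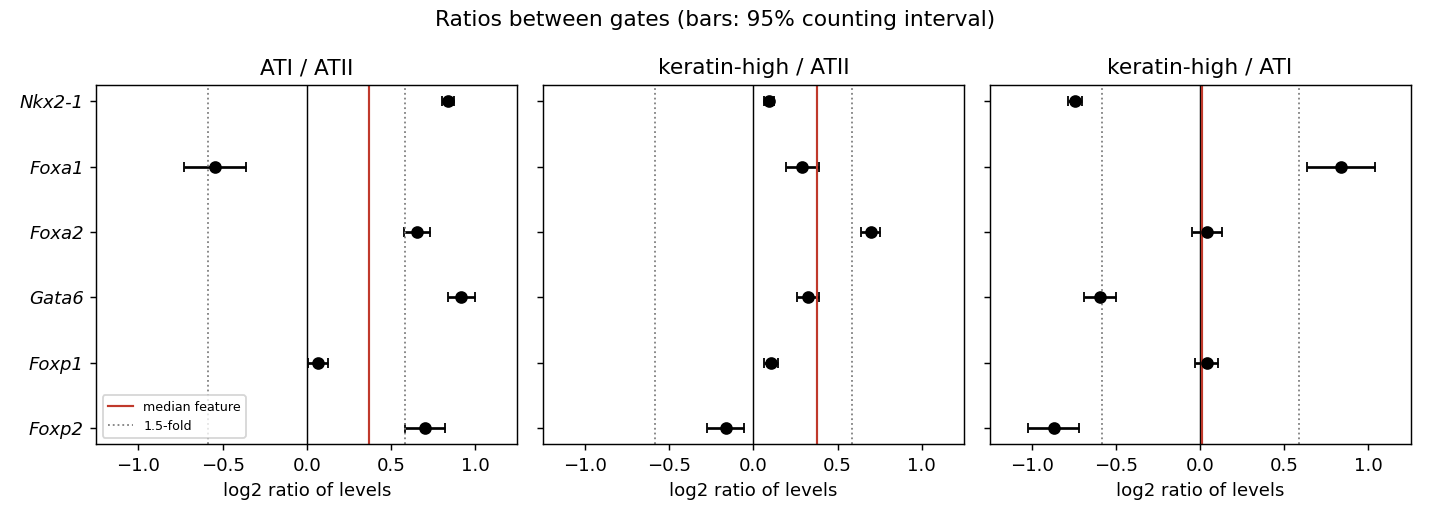
Log2 ratios of the 6 members between pairs of gates with exact 95% intervals (counting error only), a red line at the median of all features tested and dotted lines at 1.5-fold. Foxa1 stands below 0 for ATI against ATII while Nkx2-1, Foxa2, Gata6 and Foxp2 stand above it, and Nkx2-1, Gata6 and Foxp2 stand below 0 for keratin-high against ATI.

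Depth moved with these levels. In ATII cells Nkx2-1 was at 4.63 in cells of 5000 to 10000 UMIs and at 2.92 in those of 40000 or more. Among cells of 10000 to 20000 UMIs only, the ATI to ATII ratio was 1.71 for Nkx2-1, 0.596 for Foxa1, 1.51 for Foxa2, 1.76 for Gata6, 0.924 for Foxp1 and 1.56 for Foxp2. Nkx2-1, Foxa2, Gata6 and Foxp2 were thus again past the fold upwards, and Foxa1 was past it downwards, against 31.8% of features higher and 12% lower at that depth and a median log2 ratio of 0.33. Between keratin-high and ATI cells of that depth, Foxa1 was at 1.85-fold (1.43 to 2.40), but Nkx2-1 was at 0.751-fold, Gata6 at 0.791-fold and Foxp2 at 0.688-fold, none of them past 1.5-fold. Among cells of 40000 UMIs or more, with 15 ATI cells, Nkx2-1 was at 0.603-fold (0.540 to 0.674) and Foxp2 at 0.440-fold (0.301 to 0.663), both past it. Gata6 was at 0.976-fold (0.735 to 1.32) there. In the remaining depth classes none of these 3 genes was past it. In cells of 5000 to 10000 UMIs the ATI to ATII ratio was 1.41 for Nkx2-1, 0.647 for Foxa1, 1.55 for Foxa2, 2.15 for Gata6, 0.685 for Foxp1 and 1.17 (0.9285 to 1.47) for Foxp2. Foxp2 was at 1.44 (1.24 to 1.67) in cells of 20000 to 40000 UMIs, where Nkx2-1 was at 1.67. In cells of 40000 UMIs or more, only 15 of them ATI cells, the ratio was 1.575 (1.415 to 1.75) for Nkx2-1, 1.63 (1.11 to 2.32) for Foxp2, 1.39 (1.08 to 1.76) for Foxa2, 1.23 (0.912 to 1.615) for Gata6 and 1.12 (0.706 to 1.69) for Foxa1. Of the 4 depth classes, Nkx2-1 was thus past 1.5-fold in 3 and Foxp2 in 2. The keratin-high to ATI ratio of Foxa1 was 1.01 (0.489 to 1.95) on 12 and 46 UMIs in cells of 5000 to 10000 UMIs, 2.025 (1.61 to 2.58) in those of 20000 to 40000 and 1.17 (0.769 to 1.88) in those of 40000 or more.

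**Figure D3:**
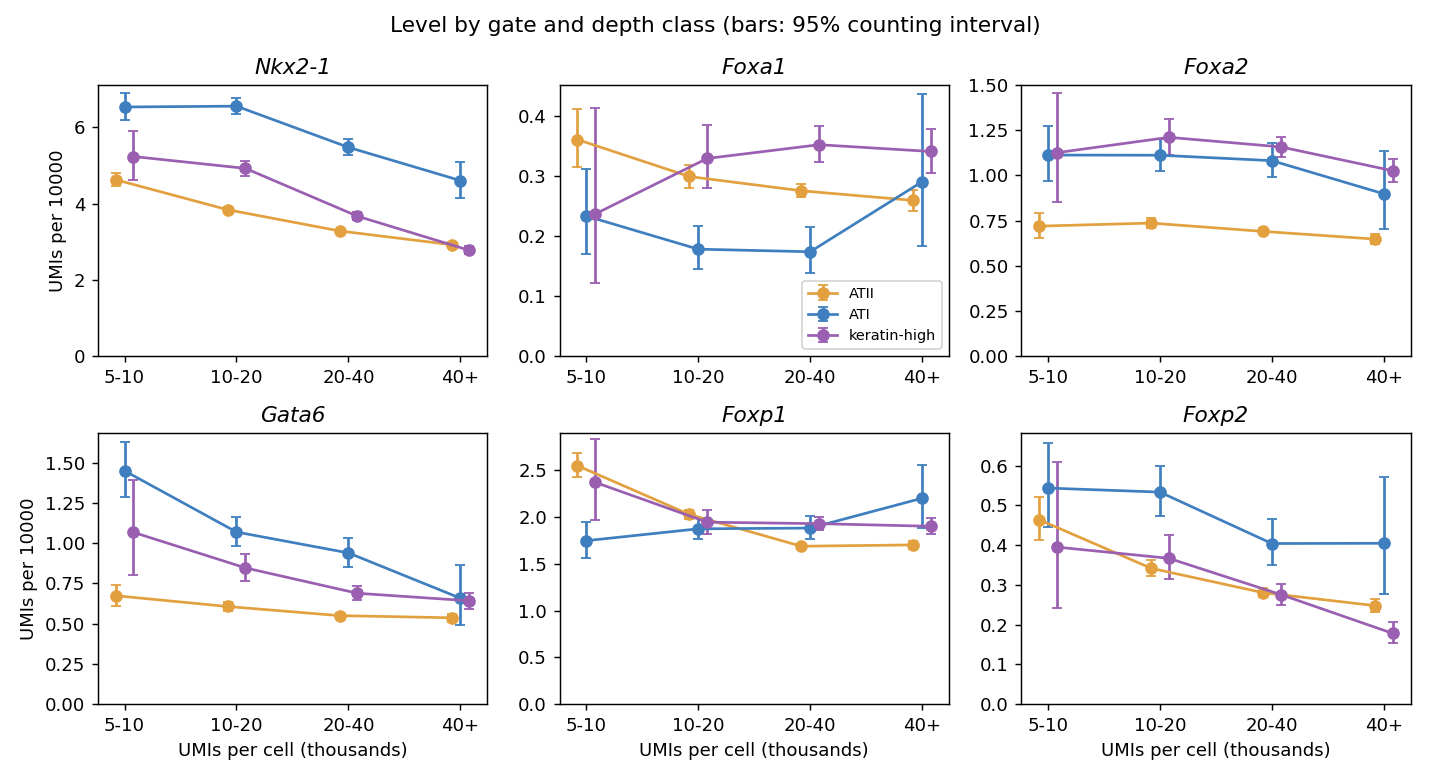
Levels of the members (UMIs per 10000) in classes of cell depth (UMIs per cell) for each gate, with exact 95% intervals that cover counting error only. Nkx2-1 in ATII cells is lower at greater depth, from 4.63 to 2.92, and is higher in ATI cells within each class that the gates share.

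Levels between the ATII and ATI gates were read along Hopx, an ATI gene. Epcam-positive cells with keratins under 50 were put in 5 classes of Hopx: under 2, 2 to 5, 5 to 15, 15 to 30, and 30 or more, with 7212, 861, 756, 435 and 460 cells. Nkx2-1 was at 3.40, 4.10, 5.09, 5.77 and 6.37 in these classes, and Gata6 at 0.562, 0.698, 0.749, 0.909 and 1.253, both higher at each step. Foxa2 was at 0.6995, 0.8425, 1.035, 1.07 and 1.11, with overlapping intervals in the last 3 classes. Foxp2 was at 0.297 in the first class, 0.440 in the second and between 0.466 and 0.492 in the others. Foxa1 was lower at high Hopx, at 0.281, 0.250, 0.247, 0.186 and 0.208. Foxp1 was highest in the middle class, at 2.04, and lowest in the last, at 1.71. Depth moved with the classes, at medians of 21893, 19685, 18122, 15375 and 10522 UMIs. In cells of 10000 to 20000 UMIs only, Nkx2-1 was at 3.91, 4.75, 5.51, 6.22 and 6.88 and Gata6 at 0.606, 0.708, 0.819, 0.884 and 1.241, again higher at each step. The Gata6 intervals overlapped at each step but the last. Foxa1 at that depth was at 0.302, 0.244, 0.271, 0.147 and 0.210. The median feature was not read in these classes, and it was 1.29-fold higher in the ATI than the ATII gate.

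**Figure D4:**
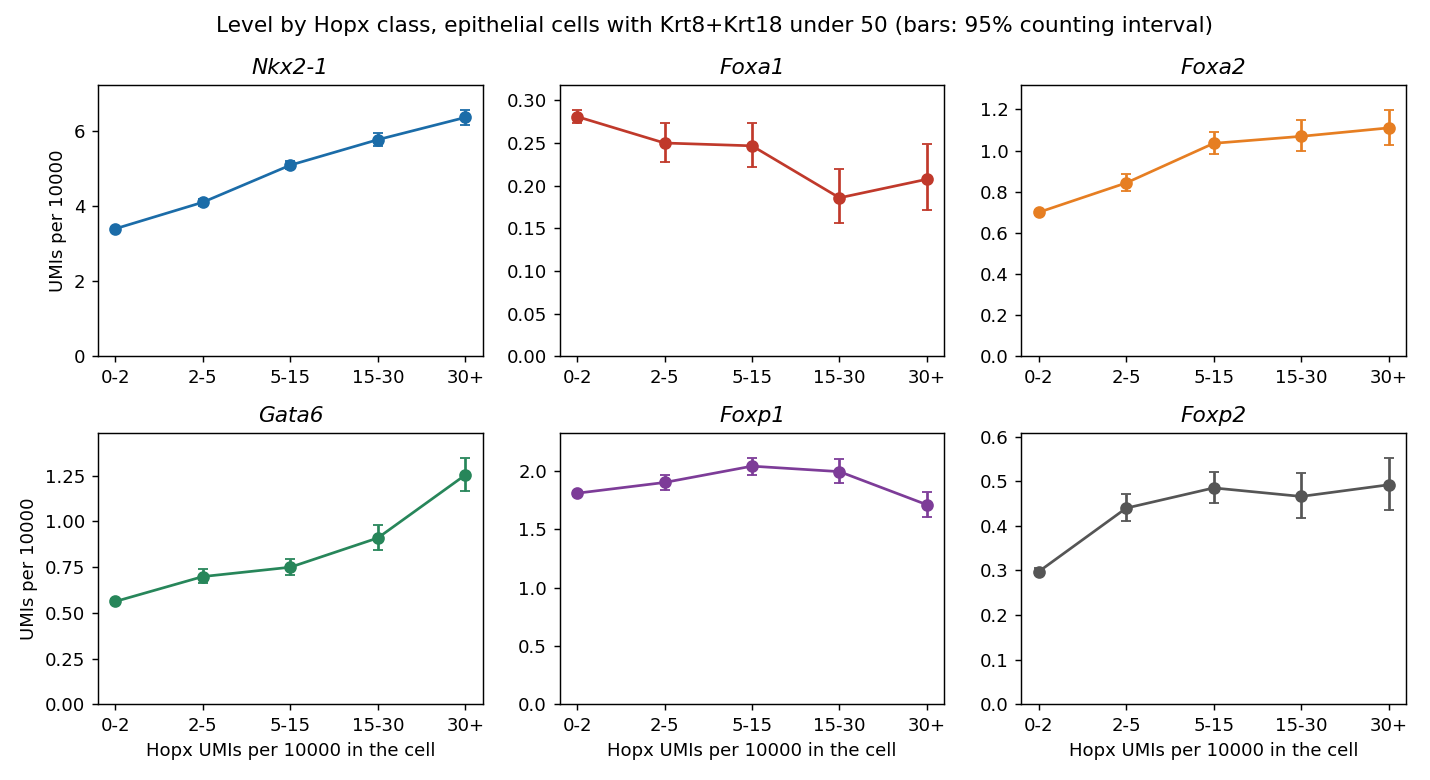
Levels of the members (UMIs per 10000) in 5 classes of Hopx level among Epcam-positive cells with keratins under 50, with exact 95% intervals (counting error only). Nkx2-1 and Gata6 are higher in each class than in the one before, from 3.40 to 6.37 and from 0.562 to 1.253, and Foxa1 is lower in the last classes.

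Keratin-high cells were divided by Hopx in the same way. The 127 cells with Hopx at least 15 had 5.525 of Nkx2-1 against 3.46 in the other 1056, a ratio of 1.60 (1.501 to 1.695). The Foxa1 ratio was 0.472 (0.329 to 0.658) and the Foxp2 ratio 1.60 (1.26 to 2.00), while Foxa2 was at 1.046 (0.916 to 1.19) and Gata6 at 1.29 (1.11 to 1.501). The cells with more Hopx were read less deeply, at a median of 15598 against 24807 UMIs. Among cells of 10000 to 20000 UMIs, 61 against 253, the ratio was 1.23 (1.11 to 1.35) for Nkx2-1, 0.3785 (0.197 to 0.668) for Foxa1 and 1.24 (0.850 to 1.78) for Foxp2, an interval that holds 1. Those of Foxa2, at 0.857 (0.683 to 1.067), and Gata6, at 1.19 (0.927 to 1.504), held 1 as well. Among cells of 20000 to 40000 UMIs, 32 against 496, Nkx2-1 was at 1.37 (1.24 to 1.52), Foxa1 at 0.546 (0.3155 to 0.883) and Gata6 at 1.305 (1.02 to 1.65). Foxp2, at 1.24 (0.818 to 1.81), and Foxa2, at 0.962 (0.775 to 1.18), had intervals that hold 1 there.

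Within the ATII gate the members went down as Sftpc went up, but so did the typical feature. Cells with Sftpc at 2000 or more had 0.664-fold the Nkx2-1 level of cells at 500 to 1000 (2.90 against 4.365), and the median feature was at 0.698-fold. Foxp2 was at 0.5315-fold, Foxp1 at 0.612-fold, Foxa2 at 0.726-fold, Foxa1 at 0.796-fold and Gata6 at 0.808-fold. Sftpc is part of the denominator of each level, so these ratios and that of the median feature share it. Depth and mitochondrial share also moved with these classes. Their medians were 11112 UMIs and 7.49% in cells at 500 to 1000, and 23969 UMIs and 4.01% in cells at 2000 or more. The part of either in these ratios was not tested.

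The trapped Lkb1 allele reports GFP, and an intact or restored allele gives Stk11 transcripts. GFP transcripts alone were found in 3360 cells, Stk11 transcripts alone in 3367, both in 29 and neither in 5427, and 944.7 cells with both would be given by independent detection. Because the mouse of each cell was not read here, the 2 kinds of cell cannot be taken as the cohorts. Stk11 was also read in other cells, with 48 reference fibroblasts that had Stk11 alone against 1 that had GFP alone. In the ATII gate there were 1742 GFP-only and 2353 Stk11-only cells of like depth, with medians of 25472 and 25078 UMIs. Their tdTomato levels differed, at 89.8 in the GFP-only and 49.9 in the Stk11-only cells, and its part in the values that follow was not tested.

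Nkx2-1 and Foxp2 were lower in the Stk11-only ATII cells. Nkx2-1 was at 2.945 against 3.78, a ratio of 0.780 (0.764 to 0.796), and Foxp2 at 0.2445 against 0.344, a ratio of 0.711 (0.663 to 0.763). Foxa2 was at 0.848-fold (0.810 to 0.887), and Foxa1 (0.9775), Gata6 (0.986) and Foxp1 (0.968) were close to 1 over the whole gate. Of the 6 members 0 were past 1.5-fold in either direction, against 1.91% of 9424 features higher and 7.08% lower, and the median feature was at 0.881-fold. The median log2 ratio was -0.14 over the members and -0.18 over all features. At 5000 UMIs, 76.7% of the Stk11-only and 84.1% of the GFP-only ATII cells had an Nkx2-1 UMI, and 98.7% and 99.5% before thinning.

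Nkx2-1 was below the GFP-only level in the other gates too. Its ratio was 0.862 (0.816 to 0.910) in ATI cells, 0.745 (0.701 to 0.791) in keratin-high cells and 0.616 (0.594 to 0.639) in cells outside the gates. The median feature was at 0.921-fold, 0.987-fold and 0.9035-fold in the same order, so the ATI ratio was near that of a typical feature. The cells outside the gates held most of the reference cells, and leaving these out took Stk11-only cells from 583 to 509 and GFP-only cells from 734 to 732. The Nkx2-1 ratio was then 0.704 (0.678 to 0.730) over all depths, 0.606 (0.560 to 0.656) in cells of 10000 to 20000 UMIs and 0.736 (0.699 to 0.775) in those of 20000 to 40000, past 1.5-fold in the first of these depth classes alone. In ATII cells of 4 Sftpc ranges it was 0.790, 0.818, 0.840 and 0.882 from low to high Sftpc, and between 0.729 and 0.794 in 4 classes of depth. Stk11-only ATII cells were more often in the high Sftpc ranges, with 465 at 2000 or more against 66 GFP-only cells. Foxa2 was at 0.812-fold in ATI cells, 0.765-fold in keratin-high cells and, without the reference cells, 0.726-fold outside the gates (0.637-fold with them). Its ratio did not hold throughout the ATII gate, at 1.006 (0.866 to 1.165) in cells with Sftpc at 500 to 1000 and 1.03 (0.913 to 1.155) in cells of 10000 to 20000 UMIs. Foxp1, at 0.968-fold over the whole ATII gate, was above 1 in each of the 4 Sftpc ranges. From low to high Sftpc it was at 1.07 (0.980 to 1.17), 1.09 (1.04 to 1.15), 1.04 (0.995 to 1.09) and 1.36 (1.19 to 1.575). Foxp2 was at 0.701-fold outside the gates without the reference cells (0.618-fold with them). In the cells of 10000 to 20000 UMIs outside the gates, again without reference cells, Foxa2 was at 0.622-fold (0.5185 to 0.744) and Foxp2 at 0.569-fold (0.435 to 0.7375), and in those of 20000 to 40000 at 0.7185-fold and 0.710-fold. In ATII cells its ratio was 0.713, 0.677, 0.735 and 0.659 in the 4 classes of depth from low to high, past 1.5-fold only in the deepest, those of 40000 UMIs or more. In the 4 Sftpc ranges it was 0.723, 0.789, 0.762 and 0.997 (0.729 to 1.39) from low to high Sftpc, and in ATI cells 0.857 (0.706 to 1.04), and both of these last intervals hold 1. In the keratin-high gate, with 165 Stk11-only and 642 GFP-only cells, Foxp1 was at 1.22 against 2.06 (0.592-fold, 0.5415 to 0.647) and Gata6 at 0.859 against 0.645 (1.33-fold, 1.19 to 1.49), beside 0.968-fold and 0.986-fold in the ATII gate. The share of these cells from each mouse is not known here.

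**Figure D5:**
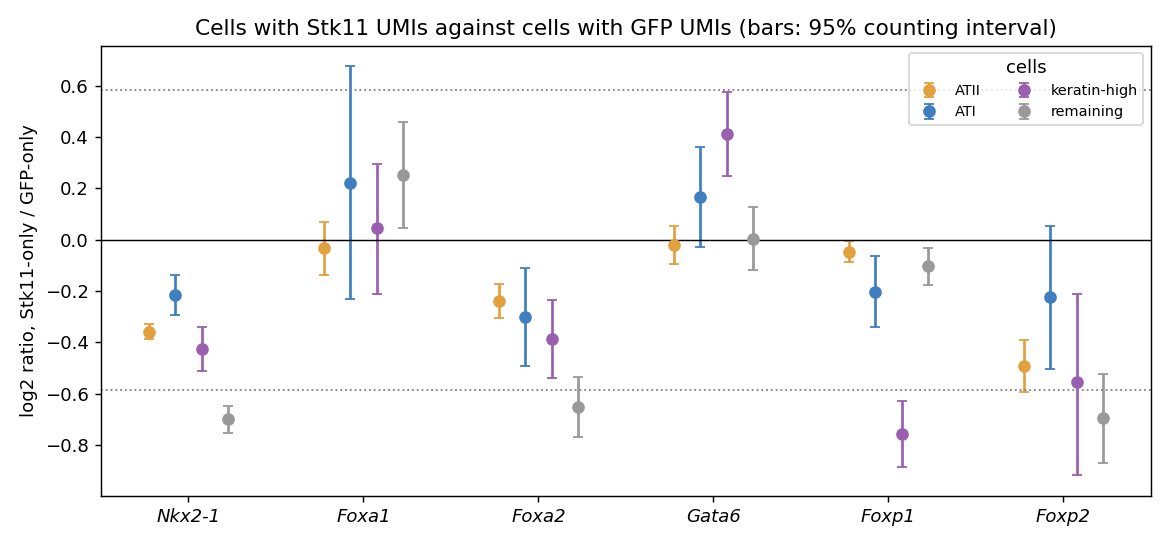
Log2 ratios of the members between Stk11-only and GFP-only cells within each gate and the remaining cells, with exact 95% intervals that cover counting error only. The remaining cells include the reference cells. Nkx2-1 lies below 0 in every group of cells plotted (0.780-fold in ATII cells), dotted lines mark 1.5-fold, and Foxp1 lies far below 0 in the keratin-high gate (0.592-fold). The median feature, not plotted, was at 0.881-fold, 0.921-fold, 0.987-fold and 0.9035-fold in ATII, ATI, keratin-high and remaining cells.

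Other genes of the pathway were taken from lists. A gene that reaches the level minimum only in the gate where it is high has to differ, so list counts and medians are over genes at 0.05 or more in both gates. Over all features at that level, 28.6% were higher and 7.36% lower in ATI than ATII cells (median log2 ratio 0.35), 31.3% and 7.25% in keratin-high than ATII cells (0.35), 9.98% and 9.03% in keratin-high than ATI cells (0.00), and 1.44% and 4.83% in Stk11-only than GFP-only ATII cells (-0.17). Of 20 other factors of the lung epithelium, 14 did so for ATI and ATII cells, with 2 higher, 7 lower and 5 within 1.5-fold, and a median log2 ratio of -0.45, beside 28.6% and 7.36% of all features. Tead1, a YAP and TAZ partner, was at 4.025-fold (1.48 against 0.368) and Irx2 at 1.86-fold, and the ETS factors Elf5 and Ehf were at 0.122-fold and 0.124-fold. Cebpa, a C/EBP factor of ATII maturation, was at 0.351-fold (1.32 against 3.76). Of 15 such factors for keratin-high against ATII, 2 were higher, 7 lower and 6 within the fold, with a median of -0.47, beside 31.3% and 7.25% of all features. For keratin-high against ATI, 1 of 14 was higher, 5 lower and 8 within the fold, with a median of -0.16, beside 9.98% and 9.03%. In the comparison by Stk11 and GFP 0 of 15 were past the fold, with a median of -0.15, beside 1.44% and 4.83%.

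Of 12 ATII genes known as targets of NKX2-1 and FOXA factors, all at the minimum in both gates, 10 were lower in the ATI than the ATII gate, 1 was higher and 1 was within the fold (median log2 ratio -2.26), beside 7.36% of all features lower and a median of 0.35. Lyz2 was at 0.0593-fold and Cxcl15 at 0.0906-fold, and the gene that was higher, Cldn18, a claudin of both alveolar cell types, was at 4.61-fold. In keratin-high against ATII cells 11 were lower and 1 higher (median -2.52 beside 0.35 and 7.25% lower), and against ATI cells 8 were lower, 1 higher and 3 within the fold (median -0.70 beside 0.00 and 9.03% lower). In Stk11-only against GFP-only ATII cells 2 of the 12 were higher and 10 within the fold (median 0.11 beside -0.17 and 1.44% higher for all features). Of 10 ATI genes, 6 were at the minimum in both gates for ATI and ATII cells, and 6 of these were higher in ATI cells (median 2.72), beside 28.6% of all features higher and a median of 0.35. For keratin-high and ATII cells 5 of 6 were higher and 1 was within the fold (median 1.46 beside 0.35 and 31.3% higher), and for keratin-high and ATI cells 8 of 9 were lower and 1 was within the fold (median -1.57 beside 0.00 and 9.03% lower). For Stk11 against GFP 1 of 6 was higher and 5 were within the fold, with a median of -0.50 beside -0.17.

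The last list held 14 stomach and gut genes that NKX2-1 is known to hold back in the lung. Only 3 of them were at the minimum in both the keratin-high and ATII gates, of which 2 were higher and 1 within the fold, beside 31.3% of all features higher, and 4 reached it in the keratin-high gate alone. The 2 higher genes were Psca, at 26.3-fold, and Gkn2, a gastrokine, at 11.9-fold (4.155 against 0.349). The 4 others included Tff1, a gastric trefoil peptide gene, with 2067 UMIs in keratin-high and 9 in ATII cells, and Hnf4a, a gut and liver factor, at 0.0704 against 0.00272. These UMIs were unevenly spread: 2056 of the 2067 Tff1 UMIs and 11778 of the 12742 Gkn2 UMIs were in 147 of the 1183 keratin-high cells, which were picked for a summed level of the 14 genes, these 2 included, of 10 or more. Against ATI cells 3 of 3 genes at the minimum in both gates were higher, beside 9.98% of all features, and 4 reached it in the keratin-high gate alone. Between ATI and ATII cells 1 of 2 was higher and 1 lower, and for Stk11 against GFP 1 of 2 was higher and 1 lower, counts too small to set beside the shares of all features.

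Within the keratin-high gate the members were then set against the summed level of these genes, in classes chosen after their values had been seen. Nkx2-1 was at 3.86 in 654 cells with a sum under 1, at 3.50 in 382 cells with 1 to 10 and at 3.05 in 147 cells with 10 or more. The highest class was at 0.790-fold the lowest for Nkx2-1, 0.690-fold for Gata6, 0.580-fold for Foxp2, 0.865-fold for Foxa2, 0.934-fold for Foxa1 and 1.19-fold for Foxp1. Depth moved with the classes, at medians of 20611, 26888 and 30266 UMIs. In cells of 20000 to 40000 UMIs the ratio was 0.917 (0.846 to 0.994) for Nkx2-1, 0.719 for Gata6, 1.32 for Foxp1 and 0.754 (0.544 to 1.03) for Foxp2, an interval that holds 1. The 89 keratin-high cells with an Hnf4a UMI had 0.658-fold the Nkx2-1 level of the other 1094, and 0.792-fold at 20000 to 40000 UMIs. Nkx2-1 transcripts were thus present in keratin-high cells of each class of stomach genes.

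The members detected in each cell were counted at matched depth. At 5000 UMIs the mean number of members detected was 2.20 in ATII, 2.59 in ATI and 2.29 in keratin-high cells. None was detected in 3.81%, 0.713% and 4.13% of them, and at least 3 in 37.3%, 51.5% and 41.2%. All 6 were found together in 2 ATII, 4 ATI and 0 keratin-high cells. The coefficient phi for detection of 2 members in the same cell was between -0.0971 and 0.0880 over all pairs and gates, weak values in sparse counts.

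Likeness of pattern was taken over 12 groups of cells, the 3 gates and the remaining cells each divided into GFP-only, Stk11-only and neither. The groups share the same mice, libraries and gates and differ in depth, so the coefficients are descriptions. Nkx2-1 went with Foxp2 (Pearson r = 0.872), Gata6 (0.668) and Foxa2 (0.658) and against Foxa1 (-0.782), and Foxa1 also went against Foxp2 (-0.828). Over 8219 genes the most alike were Mus81 (0.983), Pcnt (0.983) and Zfp444 (0.980) for Nkx2-1, Abhd2 (0.971), Bspry (0.945) and Msmo1 (0.9445) for Foxa1, and Atg12 (0.976), Ndufc2 (0.975) and Klc2 (0.970) for Foxa2. For Gata6 they were Myo5b (0.964), Flrt3 (0.963) and Epb41l5 (0.962), for Foxp1 Pard6a (0.894), Acd (0.892) and Cyth1 (0.888), and for Foxp2 Camk2g (0.949), Shh (0.948) and Irf2 (0.944).

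Genes beside the members were read in the same gates. Gm26973, an antisense gene that overlaps Nkx2-1, was at 0.00675, 0.0150 and 0.00815 in ATII, ATI and keratin-high cells, and Mbip, 186.1 kb away, at 1.38, 1.66 and 1.31. A lincRNA 2.67 kb from Foxa2, 9030622O22Rik, was at 0.0299, 0.0832 and 0.103, higher in ATI and keratin-high cells as Foxa2 was. Mdfic, the neighbour of Foxp2, was at 0.616, 0.710 and 0.447, the same order as Foxp2. Gm20696, annotated over Foxp1 on the same strand, was at 0.0383, 0.0330 and 0.0205, and how the counting divided reads between this pair is not given in the sources used here, so Foxp1 is uncertain to that extent.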

How the data were processed

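Single-cell 3′ libraries (10x v3) of sorted neoplastic cells from 6 mice were analysed. The authors deposited UMI counts per gene and cell, made with Cell Ranger 3.0.2 on mm10 per the labels, as 1 matrix over all libraries, and its annotation release is not given in the sources used here. The barcodes were not analysed here, so neither the mouse of a cell nor barcodes shared by libraries were read. Counts were not normalized. Cells with at least 500 genes and at most 20% mt- UMIs were kept, levels were computed as summed UMIs per 10000, and shares of cells after thinning each cell to 5000 UMIs (seed 11). Poisson, conditional binomial and Clopper-Pearson 95% intervals were used, with no test, because the matrix is 1 pooled sample. Doublets were not called, and the 6% deepest cells were left out in an alternative. The level and ratio code was tested on simulated data. Members, lists and gates were chosen with earlier results of these data known. The 6 members are given in full, genes of lists by counts with examples of large ratios, and the 3 genes most alike in pattern by Pearson r of log2(level + 0.01) over 12 groups, among genes at 0.05 or more in each. Some examples (Cebpa, Hnf4a, Gkn2, Tff1, Ctse, Aldh1a3, Csf2, Hmga2), and the values given within depth classes or without reference cells, were chosen after their values were seen. Alternatives varied gates, depth, denominator, filters and fold. Tables were made in pandas 2.3.3 and numpy 2.4.6 under Python 3.11.15, intervals with scipy 1.17.1 and plots with matplotlib 3.10.9.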

Additional observations from a re-analysis of the deposited data

How the results depend on the processing

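Of the 6 members, 4 were past 1.5-fold between ATI and ATII cells, and 1 with each ratio divided by that of the median feature. Between keratin-high and ATII cells the count was 1, and it was 0 with the gate, surfactant, Lyz2 and Scgb1a1 UMIs left out of the denominator, 0 relative to the median feature and 2 with stricter gates. Between keratin-high and ATI cells it was 4, then 2 with looser gates and 1 among cells of 10000 to 20000 UMIs, an alternative chosen after seeing the data. At a 2-fold limit the counts were 0 in these 3 comparisons. Shares of all features were given above for the main counts and for those relative to the median feature. They are not given for the other alternatives of this paragraph, so those counts are not set against a background. For Stk11-only against GFP-only ATII cells the count was 0 under each of 17 alternatives, though Foxp2 was at 0.659-fold among cells of 40000 UMIs or more. The log2 ratio of ATI to ATII kept its sign in 13 of 13 alternatives for Nkx2-1 (0.47 to 0.97), Foxa1 (-0.91 to -0.42), Foxa2 (0.29 to 0.73), Gata6 (0.55 to 1.15) and Foxp2 (0.34 to 0.80), and in 8 of 13 for Foxp1 (-0.30 to 0.09). Between keratin-high and ATII cells Foxa2 alone kept its sign in 13 of 13. The Stk11 to GFP log2 ratio stayed below 0 in 17 of 17 for Nkx2-1 (-0.45 to -0.18) and Foxp2 (-0.56 to -0.31). The cause of these shifts was not tested. No paired analysis was possible because the files used here do not give the mouse of each cell, and no replicate was left out for the same reason. Foxa1 rested on the fewest UMIs of the members in the ATI gate, 257.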

Other observations

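Nkx2-1 transcripts were missing from few deeply read cells. Among Epcam-positive cells of at least 10000 UMIs, 27 of 5866 ATII cells (0.460%), 1 of 581 ATI cells (0.172%), 20 of 1024 keratin-high cells (1.95%, Clopper-Pearson interval 1.197 to 3) and 56 of 1624 cells outside the gates (3.45%) had no Nkx2-1 UMI. Of the 56 cells, 30 had a leukocyte marker UMI, and of the 20 keratin-high cells 0 had one. The tdTomato level of the 20 cells was 90.2, against 100.6 in the other keratin-high cells of that depth.

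The 20 keratin-high cells, a group chosen after its values were seen, were set against the other 1004. Foxa2 was at 0.342-fold (0.2055 to 0.535), Gata6 at 0.434-fold (0.242 to 0.717) and Foxp1 at 0.569-fold (0.427 to 0.743), and Foxa1 at 0.945-fold (0.538 to 1.54). Foxp2 had 1 UMI, a ratio of 0.0779 (0.00197 to 0.435). Sftpc was at 0.305-fold, Hopx at 0.236-fold and Krt8 at 1.34-fold. Over 8695 features at 0.05 or more in both sets of cells the median ratio was 0.995, with 12.3% at 1.5-fold or more higher and 15.9% lower. Aldh1a3, Csf2 and Hmga2 were on no list and were chosen after their values were seen. Aldh1a3 was at 13.8-fold with UMIs in 9 of the 20 cells, Csf2 at 28.05-fold in 6 and Hmga2, a chromatin protein gene of embryonic and advanced tumour cells, at 21.25-fold in 5. Of the stomach genes Ctse was at 4.41-fold, Hnf4a at 1.73-fold (0.626 to 3.82) and Gkn2 at 0.324-fold. The median depth was 20717 UMIs in the 20 cells and 25859 in the others. No test was run, and which mice these cells came from is not known here.

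In 182 cells with summed cycling markers at 5 or more, Nkx2-1 was at 2.92 UMIs per 10000, 0.798-fold (0.761 to 0.836) its level over all cells kept, while the median feature was at 1.07-fold. The other members were between 0.881-fold (Foxp1) and 1.09-fold (Foxa2). The cycling cells were read more deeply, at a median of 33651 against 19348 UMIs, and among cells of 20000 to 40000 UMIs, 61 of them cycling, the ratio was 0.767 (0.700 to 0.838) for Nkx2-1, 1.21 (1.03 to 1.40) for Foxa2 and 0.956 (0.852 to 1.07) for Foxp1. Among cells of 10000 to 20000 UMIs, 20 of them cycling, it was 0.662 (0.532 to 0.814) for Nkx2-1 and 1.30 (1.04 to 1.61) for Foxp1, so Foxp1 had no one direction.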
